A study of Homo sapiens with 12 samples.

Results

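The polyamine genes described here are 8 genes that make, break down or regulate polyamines, of 18811 genes with a probe of their own in the array table, and they were read by 11 of its 47230 probes. The genes were ODC1, AMD1, SRM, SMS, SAT1, OAZ1, OAZ2 and AZIN1, and every probe mapped to 1 of these symbols was taken, whatever its values. Of the 11 probes, 10 were detected on all 12 arrays and entered the tests, so that each of the 8 genes had a tested probe. The remaining probe, ILMN_2327994 of AZIN1, was detected on no array and was not tested.

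The cells were WM35, an established human melanoma cell line, and RNA levels were measured on 12 Illumina 1-colour BeadChip arrays that lay on 1 chip. Control cells (2 arrays) received the vehicle DMSO. Treated cells received trifluridine (trifluorothymidine, TFT, a thymidine analog that is built into DNA) for 8 h (3 arrays) or 24 h (2 arrays), or lactimidomycin (LTM, which blocks elongation by the ribosome) for 8 h (3 arrays) or 24 h (2 arrays). The letters that end the array names run from A to L in the order of these groups, so position on the chip cannot be told apart from group. All cells were plated overnight before treatment, and each drug was given at its 75% inhibitory concentration as found at 72 h. The labels of the vehicle arrays carry no time, so the same 2 control arrays stand against both times, and every comparison with control shares them. No label says that replicates were separate cultures, and the p-values below measure only the spread between these arrays, which may be technical. The line is a single cell line, so nothing here speaks to the spread between melanomas.

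Polyamines are small positively charged molecules that bind RNA and that dividing cells need in quantity. Ornithine decarboxylase, encoded by ODC1, makes putrescine from ornithine, and the S-adenosylmethionine decarboxylase encoded by AMD1 supplies the aminopropyl groups that SRM (spermidine synthase) and SMS (spermine synthase) add to give spermidine and spermine. SAT1 acetylates spermidine and spermine for export or oxidation. Several of these proteins are controlled at the ribosome: synthesis of antizyme (OAZ1, OAZ2) needs a polyamine-stimulated ribosomal frameshift, antizyme binds ornithine decarboxylase and sends it to the proteasome, and the antizyme inhibitor encoded by AZIN1 is an inactive relative of ornithine decarboxylase that binds antizyme in its place. The arrays read RNA, so protein levels and translation were not measured.

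The sequences below, from RefSeq on GRCh38.p14, are the upstream sequences of ODC1 and SAT1, which rose after LTM for 24 h, and of SRM, which fell, and the leader element for which AMD1 is known. Each is written 5′ to 3′ on the strand of its gene. The ODC1 window is the 250 bases before the start (chr2:10448328-10448577, minus strand), with capitals for TGACGT, the core of a cAMP response element. The 2 short ODC1 stretches lie before (chr2:10448029-10448048) and after (chr2:10447995-10448014) the start of an alternative transcript on the same strand, with capitals for the E-box CACGTG. The SRM window is the 250 bases before its start (chr1:11060019-11060268, minus strand), with capitals for CACGTG. The SAT1 window is the 250 bases before its start (chrX:23782923-23783172, plus strand) and holds none of the motifs searched, so it has no capitals. The AMD1 stretch is the short upstream reading frame (chr6:110874796-110874816, plus strand), with capitals for its first codon and its stop.
ODC1 window: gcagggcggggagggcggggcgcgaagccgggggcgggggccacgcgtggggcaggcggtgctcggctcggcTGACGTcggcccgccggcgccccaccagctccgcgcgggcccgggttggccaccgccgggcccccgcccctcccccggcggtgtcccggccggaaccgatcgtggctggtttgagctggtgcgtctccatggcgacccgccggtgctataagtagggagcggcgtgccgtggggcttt
ODC1 E-box before the alternative start: ccccgggCACGTGtgcggcg
ODC1 E-box after the alternative start: gcggagaCACGTGgtcgccg
SRM window: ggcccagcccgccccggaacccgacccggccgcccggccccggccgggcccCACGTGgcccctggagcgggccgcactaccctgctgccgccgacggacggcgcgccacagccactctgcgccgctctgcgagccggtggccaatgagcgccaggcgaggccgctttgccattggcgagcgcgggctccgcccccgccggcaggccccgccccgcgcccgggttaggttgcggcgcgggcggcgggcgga
SAT1 window: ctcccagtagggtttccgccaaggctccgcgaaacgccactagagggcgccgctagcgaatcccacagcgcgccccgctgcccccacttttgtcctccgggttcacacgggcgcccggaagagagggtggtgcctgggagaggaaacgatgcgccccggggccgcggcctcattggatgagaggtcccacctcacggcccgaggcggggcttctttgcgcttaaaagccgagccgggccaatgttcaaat
AMD1 upstream frame: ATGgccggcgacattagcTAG

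The AMD1 frame has 6 codons before its stop and begins shortly after the annotated start, and ribosomes that have read it are known to stall there when polyamines are high. The SAT1 window also overlaps the divergent transcript SAT1-DT in the same annotation. Both strands of the 250 bases before each start were searched for both motifs above, for TGATGNAA (the core of the C/EBP-ATF response element), for the GC box GGGCGG and for the TATA box TATAAA, in 35116 such windows of all genes and in those of 7 members (all but AZIN1). An E-box stood in the windows of SRM and of the alternative ODC1 start, and in 6.34% of all windows. TGACGT stood in the window of the main ODC1 start alone among those of the members searched, and in 7.1% of all windows. TGATGNAA, found in 3.14% of all windows, and TATAAA, found in 10.7%, were in none of the members' windows. GC boxes were in every window of a member except that of SAT1, and in 42.6% of all windows. Matches are letters in a window and were not tested for binding.

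The profiles of 3 arrays stood apart from their labels, as correlations over the 24325 tested probes show, each probe being centred on its mean. For TFT 8 h replicate 3 the correlation was -0.49 with both other TFT 8 h arrays, but 0.73 and 0.70 with LTM 8 h replicates 2 and 3. LTM 8 h replicate 1 had -0.46 and -0.39 with its label group, against 0.75 with TFT 24 h replicate 2. For TFT 24 h replicate 1 the value was 0.44 with TFT 24 h replicate 2, below the 0.66 it had with both TFT 8 h replicates 1 and 2. The same-label values among the other 9 arrays ran from 0.68 to 0.91. Probes are not independent, and these values describe the arrays. Tests were run with the groups as labelled (12 arrays) and again without these 3 arrays (9 arrays), a selection made from the profiles, whose p-values do not allow for it. On 9 arrays TFT 24 h holds 1 array, assumed to vary like the other groups.

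Between 19485 and 20551 probes were detected on an array, and the mean scanner signal ran from 314.6 to 415.4. Precision is limited by how few arrays each group holds. Of 8 melanocyte markers, SOX10 (log2 intensity 10.36 to 11.59) and MITF (5.37 to 7.23) were detected on all 12 arrays and PMEL on 4, while MLANA, TYR, TYRP1 and S100B were detected on none and DCT had no probe. The name WM35 comes from the sample titles. Of these markers only SOX10 and MITF, the latter by 1 of its 3 probes, were detected on every array. Of the markers of other cell types, KRT5, KRT14, KRT1, PTPRC and CD3E were detected on no array, whereas the fibroblast-associated genes LUM, PDGFRA and DCN were detected on 12, 5 and 3 arrays. After LTM for 24 h, 1 of 3 tested fibroblast genes rose (LUM, 5.41 to 6.80 over the arrays, log2 fold change 1.07, limma adjusted p = 0.0206). Of 3 tested melanocyte genes, SOX10 fell (-1.02, adjusted p = 0.000979) and MITF rose (1.48, adjusted p = 0.00226). The part of these shifts in the results below was not tested, and in bulk RNA fewer cells of a type and less RNA per cell cannot be told apart.

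Values below are log2 intensities after background correction and quantile normalization, tests are limma's moderated two-sided test with Benjamini-Hochberg adjustment over all 24325 probes, and a probe is called changed at an adjusted p under 0.05. After LTM for 24 h, the RNA of the first enzyme of the pathway rose most among the members, that of SAT1 and of 1 AZIN1 probe rose, and that of spermidine synthase fell. On 12 arrays 5 of the 10 member probes were higher than control and 1 was lower, beside 40.9% of all tested probes called (20% higher and 20.9% lower). On 9 arrays 7 were higher and 1 lower, beside 54.3% of all probes (26.1% higher and 28.2% lower). Without quantile normalization 3 member probes were higher and 2 were lower, on 12 arrays and on 9. Nothing particular to the members is read from these shares, since much of the array was called and the members are few. With quantile normalization the median log2 fold change was 0.55 over the 10 member probes and -0.05 over all probes. Without it the median of all probes was -0.11, and that of the members was not computed. The SMS probes were then at 0.10 and 0.06 and OAZ1 at -0.59, against 0.68, 0.62 and 0.09 with it. No general rise of the members is read from these medians. Neither group holds an array that stands apart, so the fold changes are the same on 12 and on 9 arrays and only their errors differ.

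**Figure D1:**
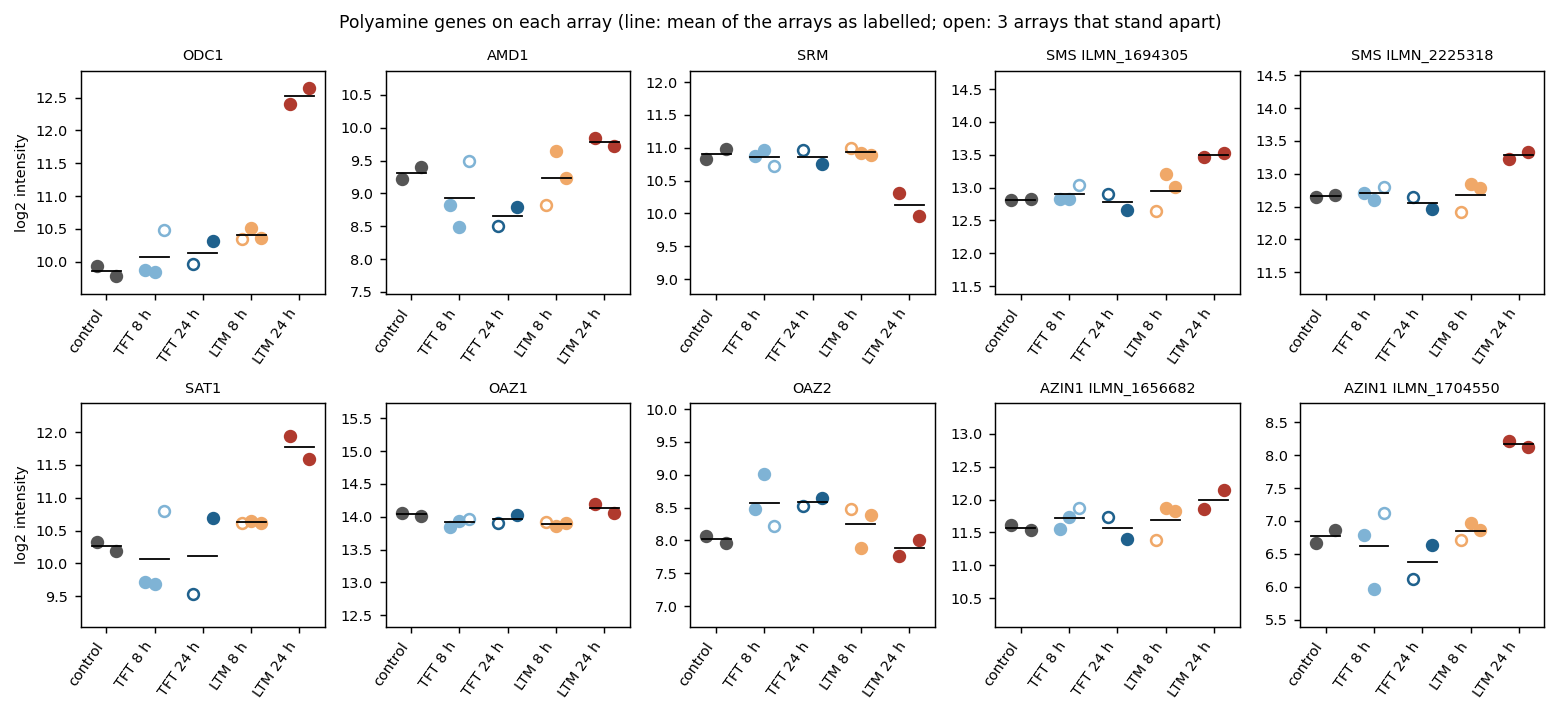
Log2 intensity (y axis, each panel spanning the same height) of the 10 tested probes on each of the 12 arrays by labelled group (x axis). Points are arrays, lines are means of the arrays as labelled, and open points are the 3 arrays that stand apart. The LTM 24 h arrays of ODC1, at 12.40 and 12.64, sit above every other array, and those of SRM, at 10.31 and 9.96, sit below.

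ODC1, the rate-limiting enzyme of putrescine synthesis, was read by probe ILMN_1748591. Its log2 intensities were 9.93 and 9.78 in control, 12.40 and 12.64 after LTM for 24 h, and 10.34, 10.52 and 10.36 after LTM for 8 h. After TFT they were 9.88, 9.85 and 10.48 at 8 h, the last on the array labelled TFT 8 h replicate 3, and 9.96 and 10.31 at 24 h. Both LTM 24 h arrays lay above all other arrays with a wide gap. The LTM 8 h arrays lay above both controls, but the lowest of them, at 10.34, is replicate 1, which stands apart from its label. Against control, ODC1 rose 6.33-fold at 24 h of LTM (log2 fold change 2.66, SE 0.23, adjusted p = 4.49e-05 on 12 arrays). By log2 fold change it ranked 208 from the top among the 24325 probes, and it was called in all 32 alternative settings, with log2 fold changes from 2.27 to 2.78. By group mean on 12 arrays the order of levels was control (9.86 ± 0.11, SD, n = 2), TFT 8 h (10.07 ± 0.36, n = 3), TFT 24 h (10.13 ± 0.25, n = 2), LTM 8 h (10.41 ± 0.10, n = 3) and LTM 24 h (12.52 ± 0.17, n = 2). The arrays of neighbours among the first 4 overlapped at every step except TFT 24 h to LTM 8 h, where the gap was only 10.31 against 10.34. On 9 arrays TFT 8 h was level with control (9.86 ± 0.02, n = 2), TFT 24 h was at 10.31 (n = 1) and LTM 8 h at 10.44 ± 0.12 (n = 2). Against control, the log2 fold change after TFT was 0.21 at 8 h and 0.27 at 24 h on 12 arrays, and 0.00 and 0.45 on 9.

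AMD1, the decarboxylase that feeds both aminopropyl transfers, was read by ILMN_1667994. It stood at 9.22 and 9.40 in control and at 9.85 and 9.72 after LTM for 24 h. The TFT arrays were at 8.82, 8.49 and 9.49 at 8 h and at 8.51 and 8.80 at 24 h. The LTM 8 h arrays were at 8.82, 9.65 and 9.24. The 9.49 and the LTM 8.82 belong to arrays that stand apart, and without those every TFT array lay below every control and every LTM array. Against control at 24 h of LTM, AMD1 did not pass on 12 arrays (log2 fold change 0.48, SE 0.32, adjusted p = 0.264) and passed on 9 (SE 0.18, adjusted p = 0.0411) and in the fit of only the groups compared (adjusted p = 0.0274). The call on 9 arrays was lost on leaving out either control or either LTM 24 h array, with adjusted p of 0.0659 to 0.191, and under other scalings (0.42, adjusted p = 0.0686 without quantile normalization, and 0.49, adjusted p = 0.0656 from the deposited processed table).

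SRM, spermidine synthase, was the member that fell, by probe ILMN_1661337. Its values were 10.83 and 10.98 in control and 10.31 and 9.96 after LTM for 24 h. The remaining 8 arrays lay between 10.72 and 10.99, so that no array overlapped the LTM 24 h group. The fall was 1.7-fold (log2 fold change -0.77, SE 0.17, adjusted p = 0.00447), and on 9 arrays the adjusted p was 0.00133. SRM was called lower in all 32 alternative settings, with log2 fold changes from -0.94 to -0.59.

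SMS, spermine synthase, was read by 2 probes that moved alike. ILMN_1694305 stood at 12.81 and 12.82 in control and at 13.46 and 13.52 after LTM for 24 h. ILMN_2225318 stood at 12.64 and 12.68 in control and at 13.23 and 13.33 after LTM for 24 h. Both probes were higher on the LTM 24 h arrays than on any other array. On 12 arrays they rose by log2 fold changes of 0.68 (SE 0.19, adjusted p = 0.0167) and 0.62 (SE 0.18, adjusted p = 0.0158), but without quantile normalization the changes were 0.10 and 0.06 and neither was called (adjusted p = 0.687 and 0.831). The mean scanner signal was 415.4 and 403.1 on the control arrays and 340 and 314.6 on the LTM 24 h arrays, and its part in this difference was not tested. The call on 12 arrays was also lost for ILMN_1694305 on leaving out any 1 of the 4 arrays compared (adjusted p 0.0539 to 0.0817), and for ILMN_2225318 on leaving out either control or LTM 24 h replicate 2 (adjusted p 0.0666 to 0.0852).

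SAT1, the acetyltransferase that starts polyamine breakdown and export, was read by ILMN_1753342. It stood at 10.33 and 10.19 in control, at 10.61, 10.65 and 10.62 after LTM for 8 h, and at 11.94 and 11.59 after LTM for 24 h. After TFT it stood at 9.72, 9.69 and 10.79 at 8 h and at 9.53 and 10.69 at 24 h. Within each TFT label the arrays thus spanned over 1 log2 unit. At 8 h the array that stands apart was the highest, and at 24 h 1 of the only 2 arrays stands apart. SAT1 rose 2.83-fold after LTM for 24 h (log2 fold change 1.50, SE 0.39, adjusted p = 0.0102 on 12 arrays, SE 0.15, adjusted p = 1.53e-05 on 9). On 12 arrays the call was lost without control replicate 2 (log2 fold change 1.43, adjusted p = 0.0612) or without LTM 24 h replicate 1 (1.33, adjusted p = 0.0735). On 9 arrays it held in each of the 8 fits that left out an array.

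The antizyme RNAs were not called against control under the main normalization. OAZ1, the main antizyme gene, lay between 13.85 and 14.20 on the 12 arrays, with 14.06 and 14.01 in control and 14.20 and 14.06 after LTM for 24 h. Its change after LTM for 24 h was 0.09 (95% interval -0.22 to 0.40, adjusted p = 0.646), but without quantile normalization it was -0.59 and called (adjusted p = 0.0209), so no direction can be given for OAZ1. OAZ2, a second antizyme gene, stood at 8.07 and 7.96 in control and at 7.76 and 8.00 after LTM for 24 h (log2 fold change -0.13, 95% interval -0.70 to 0.44, adjusted p = 0.729). On the TFT arrays OAZ2 stood at 8.48, 9.01 and 8.22 at 8 h and at 8.53 and 8.64 at 24 h, all above both controls. On the LTM 8 h arrays it was at 8.47, 7.89 and 8.38, overlapping the controls. The 8.22, the 8.53 and the LTM 8.47 belong to arrays that stand apart from their labels. Without those, the TFT arrays still lay above both controls, and the LTM 8 h arrays, at 7.89 and 8.38, still overlapped them.

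AZIN1, the antizyme inhibitor, was read by 2 tested probes that differed in the size of their change. ILMN_1704550 stood at 6.67 and 6.87 in control and at 8.22 and 8.13 after LTM for 24 h, while the other arrays lay between 5.96 and 7.12. It rose 2.65-fold (log2 fold change 1.41, SE 0.31, adjusted p = 0.00444 on 12 arrays). ILMN_1656682 stood at 11.61 and 11.54 in control and at 11.85 and 12.15 after LTM for 24 h. Its change was 0.43 (SE 0.21, adjusted p = 0.132 on 12 arrays, 0.0281 on 9) and 0.07 without quantile normalization (adjusted p = 0.827 on 12 arrays and 0.685 on 9). On 9 arrays its call was lost without either control or without LTM 24 h replicate 2. The transcripts that each AZIN1 probe reads are not given in the sources used here. The undetected probe ILMN_2327994 had background-subtracted signals of -8.889 to 4.812, which is no level.

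**Figure D2:**
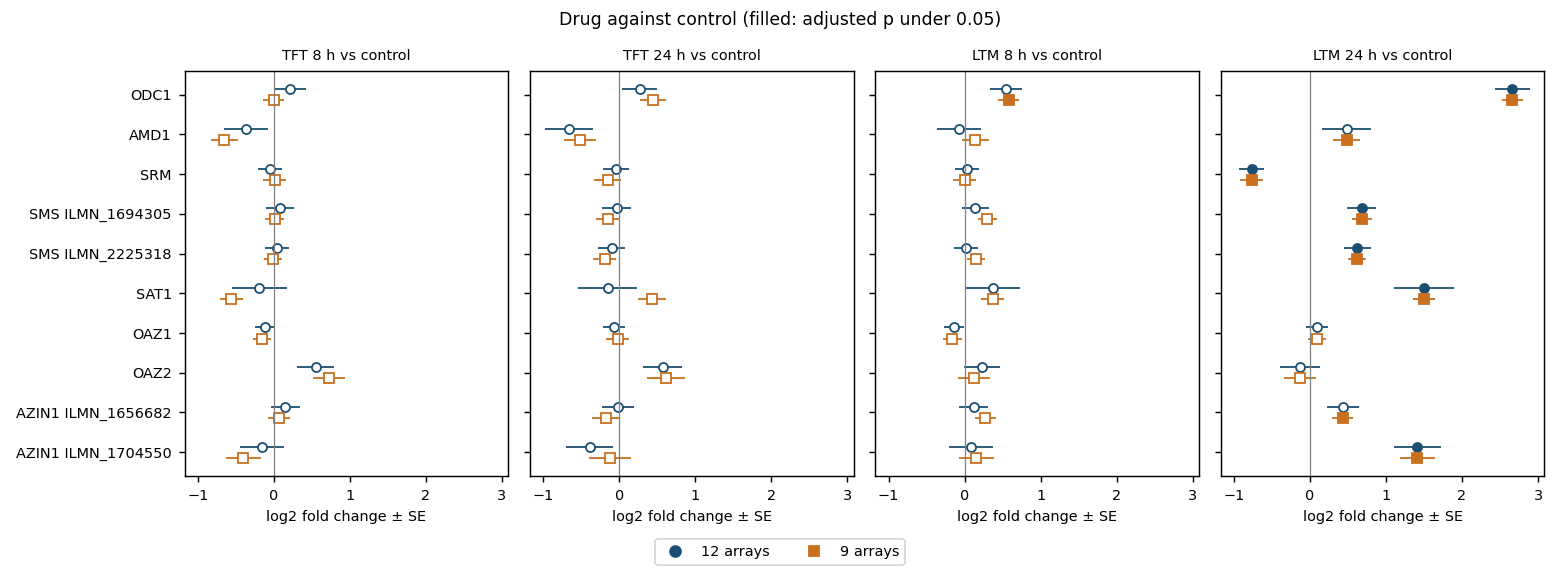
Log2 fold change against control (x axis) with its SE for the 10 tested probes (y axis) in each of the 4 drug groups, from the fits of 12 arrays (circles) and 9 arrays (squares). Filled points have an adjusted p under 0.05. In the LTM 24 h panel ODC1 lies at 2.66 and SRM at -0.77, and the TFT panels hold no filled point.

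At 8 h of LTM, ODC1 was the member that passed, and only without the 3 arrays. On 12 arrays 0 of 10 member probes and 0% of all probes were called by limma, with 1 member probe and 3828 probes at an unadjusted p under 0.05. On 9 arrays 1 member probe was higher and 0 were lower, beside 29.8% of all probes called (14.4% higher and 15.4% lower). ODC1 had a log2 fold change of 0.55 (SE 0.21, adjusted p = 0.257) on 12 arrays and of 0.58 (SE 0.14, adjusted p = 0.0113) on 9. The call on 9 arrays was lost without control replicate 2 (0.51, adjusted p = 0.0907) or without LTM 8 h replicate 2 (0.50, adjusted p = 0.087). SAT1 was at 0.37 in both fits (adjusted p = 0.626 and 0.0848, and 0.0292 on 9 arrays without either LTM 24 h array). Its LTM 8 h arrays lay above both controls, among them replicate 1 (10.61), which stands apart from its label. SRM, lower at 24 h, was at 0.03 on 12 arrays (95% interval -0.31 to 0.37) and at 0.00 on 9 (-0.33 to 0.33).

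TFT gave no called member at either time. At 8 h the call counts on 12 arrays were 0 of 10 member probes and 0% of all probes, and on 9 arrays 0 of 10 beside 1.67% of all probes (0.835% higher and 0.839% lower). At 24 h they were 0 of 10 beside 0% on 12 arrays and 0 of 10 beside 0.366% on 9 (0.317% higher and 0.0493% lower). At an unadjusted p under 0.05 there were 1 member probe and 2200 probes at 8 h, and 0 and 1236 at 24 h, on 12 arrays. OAZ2 had the highest member value in both groups, 0.55 (95% interval 0.04 to 1.07, adjusted p = 0.521) at 8 h and 0.57 (0.00 to 1.13, adjusted p = 0.966) at 24 h on 12 arrays. On 9 arrays OAZ2 was at 0.73 (SE 0.21, adjusted p = 0.108) and 0.62 (SE 0.25, adjusted p = 0.299). AMD1 was lowest at 24 h on 12 arrays (-0.66, adjusted p = 0.966), and on 9 arrays at 8 h it was at -0.65 (SE 0.18, adjusted p = 0.0953). AMD1 on 12 arrays at 8 h was at -0.37 (adjusted p = 0.72). SAT1 was at -0.19 (adjusted p = 0.895) at 8 h and at -0.15 (adjusted p = 0.999) at 24 h on 12 arrays, and at -0.56 (SE 0.15, adjusted p = 0.0915) and 0.43 (SE 0.18, adjusted p = 0.304) on 9, so that its sign at 24 h turned with the fit.

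LTM and TFT were then set against each other, each at its 75% inhibitory concentration and at the same time. At 24 h on 12 arrays 6 member probes were higher with LTM and 1 was lower, beside 40.2% of all probes called (19.9% higher and 20.3% lower). On 9 arrays 7 were higher and 2 lower, beside 49.2% (23.9% higher and 25.3% lower). ODC1 was higher with LTM by 2.39 (SE 0.23, adjusted p = 6.82e-05) on 12 arrays and by 2.22 (SE 0.17, adjusted p = 9.47e-06) on 9. AMD1 was higher by 1.13 (SE 0.32, adjusted p = 0.0147) and 0.99 (SE 0.21, adjusted p = 0.00331). On 12 arrays the AMD1 call was lost without TFT 24 h replicate 1 (0.99, adjusted p = 0.0904) and without either LTM 24 h array (adjusted p 0.0604 and 0.0776).

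SAT1 was higher by 1.65 (adjusted p = 0.00637) on 12 arrays and by 1.07 (adjusted p = 0.000707) on 9. On 12 arrays the SAT1 call was lost without the array labelled TFT 24 h replicate 1 (1.07, adjusted p = 0.0671) or without LTM 24 h replicate 1 (1.47, adjusted p = 0.0517). AZIN1 by ILMN_1704550 was higher by 1.80 (adjusted p = 0.00117) and 1.53 (adjusted p = 0.00114). SRM was lower, at -0.73 (adjusted p = 0.00609) and -0.62 (adjusted p = 0.0164), and on 12 arrays its call was lost without LTM 24 h replicate 2 (-0.55, adjusted p = 0.0605). OAZ2 was at -0.70 (SE 0.26, adjusted p = 0.0505) on 12 arrays and was called lower on 9 (-0.75, SE 0.25, adjusted p = 0.0318), a call lost without LTM 24 h replicate 1 (adjusted p = 0.14) or replicate 2 (0.0593). On 12 arrays OAZ2 was called in 8 alternative settings, among them no quantile normalization (adjusted p = 0.0342), the fit of only the groups compared (0.0105) and leaving out TFT 8 h replicate 2 or 3 or LTM 8 h replicate 1 or 2 (0.0257 to 0.0391). AZIN1 by ILMN_1656682 was called on 9 arrays (0.60, adjusted p = 0.0162) but not on 12 (0.44, adjusted p = 0.123), nor on 9 without quantile normalization (0.32, adjusted p = 0.116). The SMS probes were higher by 0.71 and 0.72 on 12 arrays (adjusted p = 0.0137 and 0.00759), but by 0.12 and 0.15 without quantile normalization, where neither was called. Both SMS calls were also lost without TFT 24 h replicate 2 or LTM 24 h replicate 2 (adjusted p 0.0514 to 0.0955). OAZ1 was at 0.17 (adjusted p = 0.385) and, without quantile normalization, at -0.53 and called (adjusted p = 0.0348).

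At 8 h, LTM and TFT differed in 0 of 10 member probes and in 0% of all probes on 12 arrays, with 0 member probes and 843 probes at an unadjusted p under 0.05. On 9 arrays 3 member probes were higher with LTM and 0 were lower, beside 27.2% of all probes (13.7% higher and 13.5% lower). SAT1 was higher by 0.93 (SE 0.15, adjusted p = 0.00139), AMD1 by 0.79 (SE 0.18, adjusted p = 0.00807) and ODC1 by 0.58 (SE 0.14, adjusted p = 0.0128). On 12 arrays the same differences were 0.56, 0.30 and 0.34 (adjusted p = 0.936 for each). SAT1 held in all 8 fits of 9 arrays that left out an array. The AMD1 call was lost without TFT 8 h replicate 2 (adjusted p = 0.0644) or LTM 8 h replicate 2 (0.0748), and that of ODC1 without either TFT 8 h array or LTM 8 h replicate 2 (adjusted p 0.0535 to 0.0965). OAZ2 was at -0.32 (adjusted p = 0.936) on 12 arrays and at -0.61 (95% interval -1.07 to -0.15, adjusted p = 0.0538) on 9, and on 9 it was called without TFT 8 h replicate 1 (-0.87, adjusted p = 0.0242) or LTM 8 h replicate 3 (-0.85, adjusted p = 0.0315). AZIN1 by ILMN_1704550 was at 0.23 on 12 arrays and at 0.54 (adjusted p = 0.105) on 9, and on 9 it was called without TFT 8 h replicate 1 (0.96, adjusted p = 0.00588). For SRM the difference was 0.08 (95% interval -0.22 to 0.39) on 12 arrays and -0.01 (-0.34 to 0.32) on 9.

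**Figure D3:**
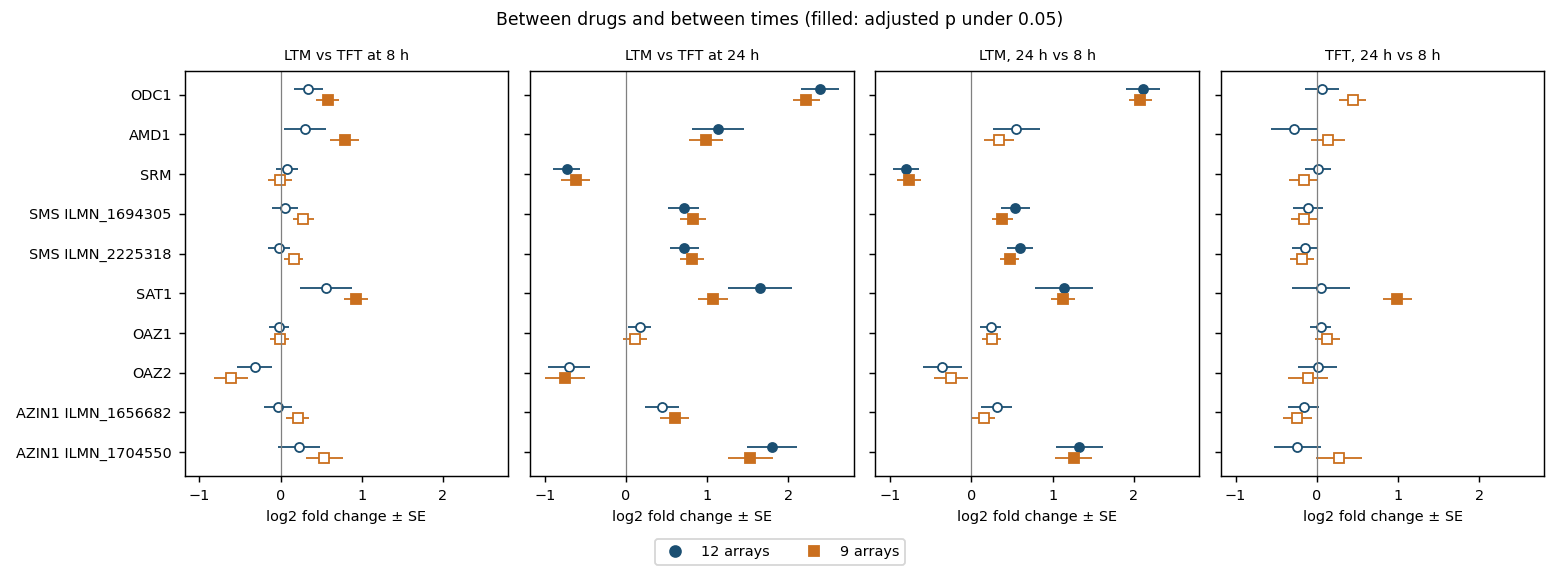
Log2 fold change (x axis) with its SE for the 10 tested probes (y axis) between LTM and TFT at each time and between 24 h and 8 h of each drug, from fits of 12 arrays (circles) and 9 arrays (squares). Filled points have an adjusted p under 0.05. ODC1 is at 2.39 between drugs at 24 h and at 2.11 between the times of LTM.

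Between 8 h and 24 h of LTM, 5 member probes rose and 1 fell on 12 arrays, beside 33.4% of all probes called (17.1% higher and 16.3% lower). On 9 arrays 5 rose and 1 fell, beside 43.3% (21.5% higher and 21.8% lower). ODC1 rose by 2.11 (SE 0.21, adjusted p = 5.76e-05) on 12 arrays and by 2.08 on 9. SAT1 rose by 1.14 (SE 0.36, adjusted p = 0.0296) and 1.13 (SE 0.15, adjusted p = 0.000195), and on 12 arrays its call was lost without any 1 of LTM 8 h replicates 2 and 3 and both LTM 24 h arrays (adjusted p 0.0559 to 0.182) and without quantile normalization (0.89, adjusted p = 0.0674). AZIN1 by ILMN_1704550 rose by 1.33 (adjusted p = 0.00427) on 12 arrays and by 1.26 (adjusted p = 0.00135) on 9. SRM fell by 0.80 (SE 0.16, adjusted p = 0.00246) and by 0.77 (adjusted p = 0.002). The SMS probes rose by 0.54 and 0.60 (adjusted p = 0.0371 and 0.0139), but on 9 arrays without quantile normalization they were at -0.03 and 0.05 and neither was called. On 12 arrays the call of ILMN_1694305 was lost without either control, LTM 8 h replicate 1 or 3, or either LTM 24 h array (adjusted p 0.0564 to 0.17), and that of ILMN_2225318 without LTM 24 h replicate 2 (0.0995). Between 8 h and 24 h of TFT, 0 of 10 member probes and 0% of all probes were called on 12 arrays, with 0 member probes and 702 probes at an unadjusted p under 0.05. On 9 arrays SAT1 alone was called, at 0.99 (SE 0.18, adjusted p = 0.0465), beside 0.608% of all probes (0.448% higher and 0.16% lower). That call rests on 1 TFT 24 h array and was lost in all 8 fits that left out a further array (adjusted p 0.0542 to 0.144).

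The change from 8 h to 24 h was also compared between the drugs as 1 term of the model. On 12 arrays 4 member probes differed, 3 with a larger and 1 with a smaller change under LTM, beside 22.5% of all probes (11.4% larger and 11.1% smaller). On 9 arrays 2 differed, both with a larger change under LTM, beside 27.9% (13.7% larger and 14.2% smaller). ODC1 changed by 2.05 more under LTM (SE 0.29, adjusted p = 0.0016) on 12 arrays and by 1.64 more (SE 0.22, adjusted p = 0.00119) on 9. For SAT1 this difference was 1.09 (SE 0.51, adjusted p = 0.148) on 12 arrays and 0.14 (95% interval -0.38 to 0.66) on 9, and on 12 arrays without TFT 24 h replicate 2 it was 1.67 and called (adjusted p = 0.0477). OAZ1 was at 0.19 (95% interval -0.21 to 0.59) and 0.12 (-0.32 to 0.57), and without quantile normalization at -0.41 (adjusted p = 0.229).

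Genes around the 8 members were taken as a list of 25, covering precursor supply, salvage of methylthioadenosine, hypusine synthesis, transport and the relatives of antizyme, inhibitor and oxidases, of which 22 were tested by their brightest probe. After LTM for 24 h, 5 rose, 6 fell and 11 did not pass on 12 arrays, beside 20% of all probes higher and 20.9% lower, with a median log2 fold change of -0.28, or of -0.25 with genes under background at their bound. Without quantile normalization 5 rose and 7 fell, 4 rose and 6 fell in the deposited processed table, and on 9 arrays 6 rose and 9 fell, beside 26.1% of all probes higher and 28.2% lower. After LTM for 8 h 0 were called on 12 arrays, and 2 rose and 5 fell on 9, beside 14.4% of all probes higher and 15.4% lower. After TFT 0 were called on 12 arrays at either time, and on 9 arrays 1 fell at 8 h, beside 0.839% of all probes lower, and 0 were called at 24 h.

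Of 4 tested salvage genes 3 fell after LTM for 24 h on 12 arrays, beside 20.9% of all probes lower. ENOPH1, a phosphatase of the route, was at -0.02 (adjusted p = 0.919). MTAP, which splits the methylthioadenosine released by SRM and SMS, stood at 11.08 and 11.03 in control and at 9.84 and 10.19 after LTM for 24 h (log2 fold change -1.04, SE 0.20, adjusted p = 0.00214). APIP, a dehydratase of the same salvage route, stood at 9.76 and 9.85 in control and at 8.78 and 8.44 after LTM for 24 h (-1.19, SE 0.22, adjusted p = 0.00144), and its other probe gave -1.24. ADI1, the dioxygenase of that route, was not well above background after LTM for 24 h and was at least 1.88-fold lower than control (adjusted p = 0.00323). After LTM for 8 h ADI1 was at -0.88 (adjusted p = 0.20) on 12 arrays and fell by 1.06 (SE 0.17, adjusted p = 0.0011) on 9. On the TFT 8 h arrays as labelled ADI1 was not well above background, at least 1.84-fold lower than control. This change had an adjusted p of 0.283 on 12 arrays and of 0.0262 on 9. After TFT for 24 h ADI1 was at -0.76 (adjusted p = 0.926) on 12 arrays. Between LTM and TFT at 24 h it was not called (adjusted p = 0.334 on 12 arrays), and it was detected on only 6 arrays. In precursor supply, MAT2A, a subunit of S-adenosylmethionine synthetase, fell (-0.67, SE 0.21, adjusted p = 0.0261), by 1.07 without quantile normalization. Its regulatory partner MAT2B rose by 1 probe (0.68, adjusted p = 0.0298), while its other probe gave -0.06 (adjusted p = 0.935), and the call was lost with the deposited processed table (adjusted p = 0.0841). After LTM for 8 h on 9 arrays that other MAT2B probe fell by 0.98 (adjusted p = 0.00183), while the brightest was at 0.00, so the probes of MAT2B disagree.

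Transport genes moved in both directions. SLC3A2, the heavy chain of amino acid exchangers that has been linked to polyamine export, stood at 11.82 and 11.90 in control, 12.51 and 12.42 on LTM 8 h replicates 2 and 3, and 13.60 and 13.59 after LTM for 24 h. It rose by 1.74 at 24 h (SE 0.31, adjusted p = 0.00144) and, on 9 arrays, by 0.61 at 8 h (adjusted p = 0.00488), and its other probe rose by 2.02 at 24 h. Without quantile normalization SLC3A2 was at 1.16 at 24 h, and at 8 h on 12 arrays it was at 0.31 (adjusted p = 0.602). The arginine transporter SLC7A1 rose by 0.90 at 8 h on 9 arrays (SE 0.13, adjusted p = 0.000644), and at 24 h it was at 0.66, called on 9 arrays only (adjusted p = 0.168 on 12 and 0.00138 on 9). SLC7A1 was at 0.53 at 8 h on 12 arrays (adjusted p = 0.435), and at 0.39 at 24 h without quantile normalization. ATP13A2, the lysosomal polyamine exporter, stood at 6.99 and 7.19 in control and at 5.60 and 5.55 after LTM for 24 h. It fell by 1.51 at 24 h (SE 0.36, adjusted p = 0.00642) and, on 9 arrays, by 0.75 at 8 h (adjusted p = 0.00356), where 12 arrays gave -0.45 (adjusted p = 0.509). Its relative ATP13A3 rose by 0.65 at 24 h (adjusted p = 0.043), as did SLC18B1, a vesicular polyamine transporter, by 0.72 (adjusted p = 0.0232). The ATP13A3 intensities were low, 5.15 to 6.05 over the 12 arrays. Of the hypusine genes, EIF5A2, also low at 5.43 to 6.73, rose (0.85, SE 0.22, adjusted p = 0.0102). DOHH, the hydroxylase, fell by 0.48 (adjusted p = 0.0362), whereas EIF5A was at -0.20 (adjusted p = 0.329), a value that was -0.55 and called without quantile normalization (adjusted p = 0.0213). The brightest probe of DHPS, which starts hypusine synthesis, gave -0.21 (adjusted p = 0.304), while its other probes fell by 0.57 and 0.56 (adjusted p = 0.0129 and 0.0217). At 8 h on 9 arrays OAT, which links ornithine to glutamate, fell by 0.68 (SE 0.12, adjusted p = 0.00239), as did ARG2 by 0.48 (adjusted p = 0.028) and ENOPH1 by 0.41 (adjusted p = 0.0447). On 12 arrays OAT was at -0.44, ARG2 at -0.10 and ENOPH1 at -0.43, none of them called. At 24 h on 9 arrays SMOX, which oxidizes spermine, was called lower (-0.41, adjusted p = 0.0256, against 0.144 on 12 arrays), as were OAT (-0.37, adjusted p = 0.0272) and ARG2 (-0.40, adjusted p = 0.0353).

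**Figure D4:**
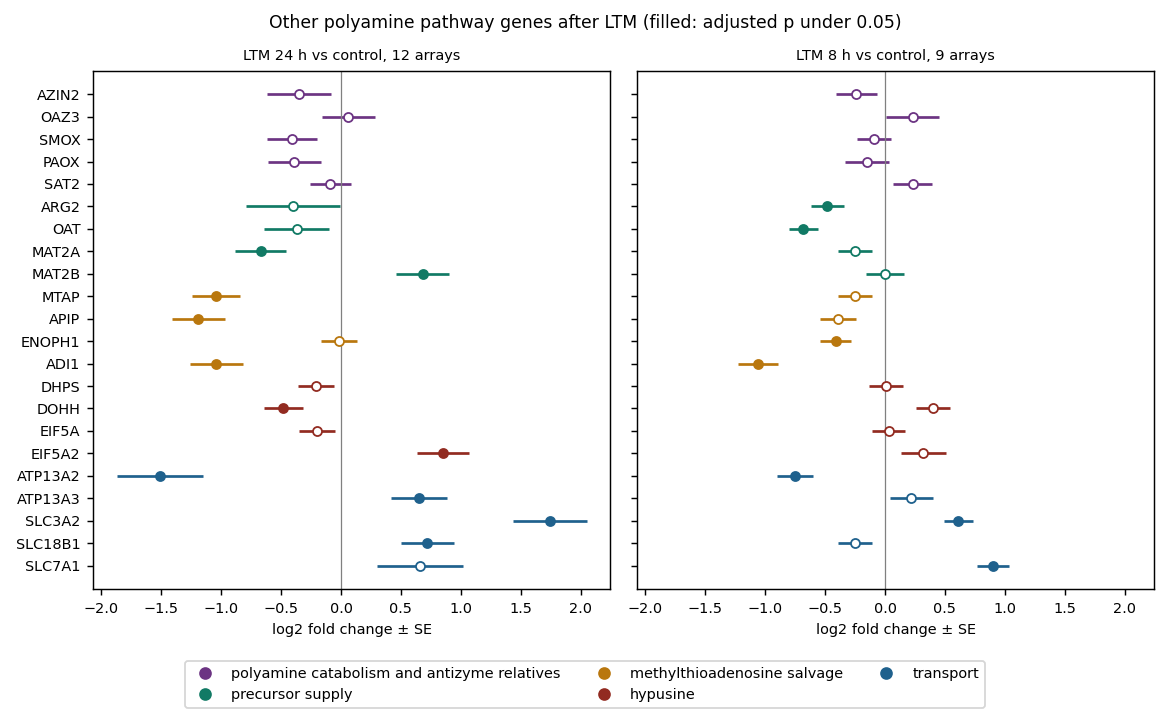
Log2 fold change against control (x axis) with its SE for 22 further genes of the pathway (y axis), coloured by role, after LTM for 24 h (12 arrays) and 8 h (9 arrays), with filled points at an adjusted p under 0.05. SLC3A2 lies at 1.74 and ATP13A2 at -1.51 in the 24 h panel, and ADI1, OAZ3 and PAOX are drawn at their fitted values although a group they are compared in was not above background.

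Among 15944 other probes of named genes, the profiles most like that of ODC1 over the 12 arrays were those of PPM1D (Pearson r = 0.997), IFT56 (0.995) and COQ6 (0.994). Over the 10 arrays without LTM 24 h, their r with ODC1 was 0.967, 0.931 and 0.940. For SAT1 the likest were FAHD2CP (0.984), NSUN5P2 (0.973) and BBS4 (0.972), and for SRM GLRX5 (0.978), PAXX (0.973) and SLC39A3 (0.972). Without the LTM 24 h arrays the SRM values were 0.686, 0.790 and 0.760. For AMD1 they were the histone genes H2BC12 (0.953) and H2AC20 (0.953) and SUGP2 (0.950). For SMS by ILMN_1694305 they were RNF114 (0.991), INTS7 (0.990) and NSMAF (0.988), and for AZIN1 by ILMN_1656682 VWA8 (0.986), SLC30A7 (0.976) and ZNF788P (0.973). The highest values were lower for the antizyme genes, 0.926 (VMP1) for OAZ1 and 0.878 (KRTAP10-11) for OAZ2. These are descriptions over 12 arrays that share a chip, a normalization and 5 groups, in which the LTM 24 h arrays carry much of the spread.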

How the data were processed

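Gene expression was measured in 12 RNA samples, 1 per array, 300 ng of RNA being labelled with biotin per the labels. The deposited scanner table held linear intensity per probe, with the background subtracted (27.3% to 29.3% of values were below 0 on each array) and a detection p-value, per the file headers. The submitters' processing notes name GenomeStudio, whose version the sources used here do not give. A second table of linear intensities of 38223 probes, processed by the authors in a way not stated, served only as an alternative. Probe symbols came from the platform annotation, and 0 needed an update.

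Signals were corrected with limma 3.58.1 neqc in R 4.3.3 (background from the detection p-values, offset 16, quantile normalization, log2). Probes detected at p under 0.05 on at least 2 arrays were kept, 24325 in all (15954 with 1 symbol, 8371 unnamed). Group means were fitted with lmFit and eBayes on 12 arrays (7 residual degrees of freedom) and on 9 (4 residual degrees of freedom), for 9 comparisons. The test was run on simulated data with known changes, drawn as independent normal noise with the spread of the 9 arrays. That run did not imitate the 3 arrays that stand apart. Each probe was tested alone, and a list gene by its brightest probe. A group in which every array had a detection p of 0.05 or more was given a bound: the brighter group's mean against, per array, the higher of the lowest detected signal and the probe's own.

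Members, gene lists and tests were chosen with earlier results of these data known. All member probes were named. Of the wider list, genes were named if their brightest probe passed for LTM at either time or TFT at 24 h in the fit of 12 or of 9 arrays (OAZ3, PAOX, EIF5A and DHPS were named after their values were seen), and for each member the 3 named genes of highest correlation. Alternatives were the offset, no quantile normalization, the deposited processed table, other detection filters, a trended and robust fit, gene level, a replicate block, only the groups compared and leaving out each array. Settings that combined 9 arrays with another scaling or a further left-out array were added after seeing the data. Motifs were counted in RefSeq promoters, and figures drawn with matplotlib 3.10.9.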

Additional observations from a re-analysis of the deposited data

Results flagged for a closer look

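The change from 8 h to 24 h differed between LTM and TFT, by the interaction term of the limma fit on 12 arrays, for 4 member probes. The difference (LTM minus TFT, log2) was 2.05 for ODC1, -0.81 for SRM, 0.74 for SMS by ILMN_2225318 and 1.57 for AZIN1 by ILMN_1704550, with adjusted p = 0.0016, 0.0234, 0.0376 and 0.0185. On 9 arrays ODC1 (1.64, adjusted p = 0.00119) and SMS (0.65, adjusted p = 0.0336) passed, and SRM (-0.61, adjusted p = 0.0797) and AZIN1 (0.99, adjusted p = 0.0666) did not. On 9 arrays the SMS call was lost in 6 of the 8 fits that left out an array (adjusted p 0.0575 to 0.0964), SRM was called without LTM 24 h replicate 1 (-0.79, adjusted p = 0.0179), and AZIN1 was called without TFT 8 h replicate 2 (adjusted p = 0.00581) and was at 0.58 without TFT 8 h replicate 1. For SMS the difference was 0.28 without quantile normalization (adjusted p = 0.406). On 12 arrays the SRM call was lost without TFT 24 h replicate 1 (-0.70) or LTM 24 h replicate 2 (-0.63), that of AZIN1 without TFT 24 h replicate 1 (1.30) or either LTM 24 h array, and that of SMS in 9 of the 12 fits that left out an array (adjusted p 0.0584 to 0.134). Of these probes, only ODC1 was called in all 32 alternative settings, from 1.33 to 2.23. Of the 2 TFT 24 h arrays in this term, replicate 1 stands apart from its label. The other tested probes of SMS and AZIN1 were not called for this term in the main fit on 12 arrays. SMS by ILMN_1694305 was at 0.65 (adjusted p = 0.0867) and AZIN1 by ILMN_1656682 at 0.47 (adjusted p = 0.25).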

How the results depend on the processing

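The 12 arrays, with 2 or 3 to a group, limit every comparison, and 3 of them stand apart from their labels. Against control at 24 h of LTM, ODC1 and SRM kept direction and call in all 32 settings. Many of these settings reuse the same control and LTM 24 h arrays with the same normalized values, so their fold changes could not differ. AZIN1 by ILMN_1704550 kept both in all 31 settings that tested it, from 1.18 to 1.51. Without quantile normalization OAZ1 after LTM for 24 h was -0.59 against control on 12 and on 9 arrays, and against TFT at 24 h -0.53 on 12 and -0.57 on 9. SMS by ILMN_1694305 between 24 h and 8 h of LTM was -0.03 on 9 arrays without quantile normalization. Without quantile normalization the median of all probes was -0.17 for LTM against TFT at 24 h (-0.05 with it) and -0.20 between the times of LTM (-0.04 with it). The cause of these differences was not tested.

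Counts of member probes called moved as follows. For LTM at 24 h against control, 5 higher and 1 lower became 3 and 2 without quantile normalization. For LTM at 8 h against control, 0 on 12 arrays became 1 on 9 arrays, alone, without quantile normalization or from the processed table. For LTM against TFT at 8 h, 0 became 3, 3 and 4 in these settings. For LTM between times, 6 became 3 without quantile normalization, and for TFT between times 0 became 1 on 9 arrays. For the interaction, 4 became 2 on 9 arrays, 2 at gene level (fewer probes tested), 1 on 9 arrays without quantile normalization and 2 on 9 arrays from the processed table.

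Leaving out 1 array gave, on 12 and then on 9 arrays, 3 to 6 and 6 to 8 for LTM at 24 h against control (lowest without control replicate 2), 3 to 8 and 8 to 9 for LTM against TFT at 24 h (lowest without LTM 24 h replicate 2), 3 to 6 and 4 to 6 for LTM between times, 1 to 5 and 1 to 3 for the interaction, 0 and 0 to 2 for LTM at 8 h against control, and 0 and 1 to 4 for LTM against TFT at 8 h. For each TFT comparison without LTM it gave 0.

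With the replicate number as a block (replicate block), the counts were 6 for LTM at 24 h against control, 7 for LTM against TFT at 24 h, 6 for LTM between times, 4 for the interaction and 0 elsewhere, as without it. Over 21 pairs of arrays with the same number, deviations from the group means correlated at -0.53 to 0.63 and exceeded 0.1 in 4 pairs. The values -0.53, 0.60 and 0.63 were between TFT 8 h and LTM 8 h arrays, groups that each hold an array that stands apart. The group means include those arrays, so this check cannot decide whether the numbers pair the arrays.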
